A study of Mus musculus with 6 samples.

Results

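The genes described here make and modify long-chain fatty acids. They were chosen by name from the textbook pathway, with earlier results of these data known. The members are Acly, Acss2, Acaca, Fasn, Elovl5, Elovl6, Scd1, Scd2, Fads1 and Fads2. This is 10 of the 23525 genes in the deposited normalized table and of the 53379 annotated genes in the count table. All 10 were tested, with 626 to 77752 counts per library. RNA came from organoids, which are small three-dimensional epithelial cultures, of mouse pancreatic tumours. Each of organoid lines 6, 23 and 34 gave 1 heterozygous library and 1 LOH library (loss of heterozygosity), so there were 3 libraries of each genotype. All 6 carry a mutant Trp53 R172H allele and Cre driven by the Pdx1 promoter, on the strain that the labels call C57/Bl6, and all were cultured in matrigel with mouse complete organoid medium. Heterozygous libraries keep the wild-type Trp53 allele (R172H/+), whereas the LOH libraries are labelled R172H/LOH and R172H/-. The labels' description of each LOH library also holds a suffix that no heterozygous library has and that no label explains, so what it stands for and the genotype cannot be told apart. No time or age is given. A genotype within a line is 1 library, so spread was measured only between lines.

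Fatty acids are built in the cytosol from acetyl-CoA. Acly makes acetyl-CoA from citrate and Acss2 makes it from acetate. Acaca, acetyl-CoA carboxylase, turns it into malonyl-CoA, and Fasn, fatty acid synthase, joins these units into palmitate. Elovl6 extends saturated and monounsaturated chains and Elovl5 extends polyunsaturated ones. Scd1 and Scd2 place the first double bond into a saturated chain, and Fads1 and Fads2 add further double bonds to polyunsaturated chains. Many of these genes are known targets of the SREBP transcription factors, and pancreatic tumour cells are known for active fatty acid synthesis.

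Total counts over genes ranged from 13680458 to 27917277 per library, so that 3 counts corresponded to 0.1 to 0.223 CPM. CPM are counts scaled to a common library size after TMM normalization, a factor that aligns the bulk of genes between libraries. Where 3 values of a genotype are given, they are in the order of lines 6, 23 and 34. Epithelial marker genes summed to 5216 to 6057 CPM in heterozygous organoids and to 5134 to 11377 CPM in LOH organoids, with LOH line 34 the highest. Adipocyte markers summed to 0.134 to 0.297 CPM in the heterozygous and 0.373 to 3.73 CPM in the LOH libraries, and Plin1, Lep and Cfd were at 0 counts in each library. Fibroblast markers came to at most 0.0667 CPM in the heterozygous and 0.466 to 0.873 CPM in the LOH libraries, hepatocyte markers to 39.8 to 55.9 CPM and 5.96 to 52.6 CPM, and acinar markers to 0.601 to 0.816 CPM and 0.868 to 2.44 CPM. Leukocyte markers summed to 1.93 to 2.37 CPM in the heterozygous and 3.26 to 14.9 CPM in the LOH libraries, with Adgre1 at 0. Sums of adipocyte, fibroblast, leukocyte and acinar markers were thus higher in the LOH libraries, without overlap. Of all tested genes, 16.4% were higher in LOH without overlap in CPM. These sums rested on few counts, and the heterozygous fibroblast sums lay below the CPM of 3 counts. Of the 7 genes in each list, 0 adipocyte, 0 fibroblast, 1 leukocyte and 1 acinar gene had enough counts to be tested. The part of these sums in the results below was not tested. Trp53 itself stood at 77.3, 76.3 and 86.5 CPM in heterozygous organoids and at 73.5, 52.5 and 47.4 CPM in the LOH libraries. In edgeR this gave a log2 fold change of -0.47 at an adjusted p of 0.227, and the total RNA level does not separate mutant from wild-type transcripts.

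No member of the pathway passed the test between genotypes. By edgeR's quasi-likelihood test with Benjamini-Hochberg adjustment over all 14537 tested genes at a threshold of 0.05, 0 of the 10 were called, where 5.21% of all tested genes were. An unadjusted p under 0.05 was reached by 4 members (Acaca, Scd1, Scd2 and Acss2), beside 25.3% of all genes. Fitted with the organoid line as a block, 0 members were called (1.47% of all genes) and 3 had an unadjusted p under 0.05 (20% of all genes). DESeq2 called 2 of the 10, Acaca and Scd1, beside 15.8% of all genes. A limma test of log2(TPM + 1) called 2, Acaca and Elovl5, beside 16%. TPM is a level corrected for transcript length and scaled to a common sum. The fitted log2 fold changes were above 0 in 5 members and below 0 in 5, with a median of -0.04, where the median of all tested genes was 0.06. In bulk RNA, fewer cells with a transcript and less transcript per cell cannot be told apart.

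**Figure D1:**
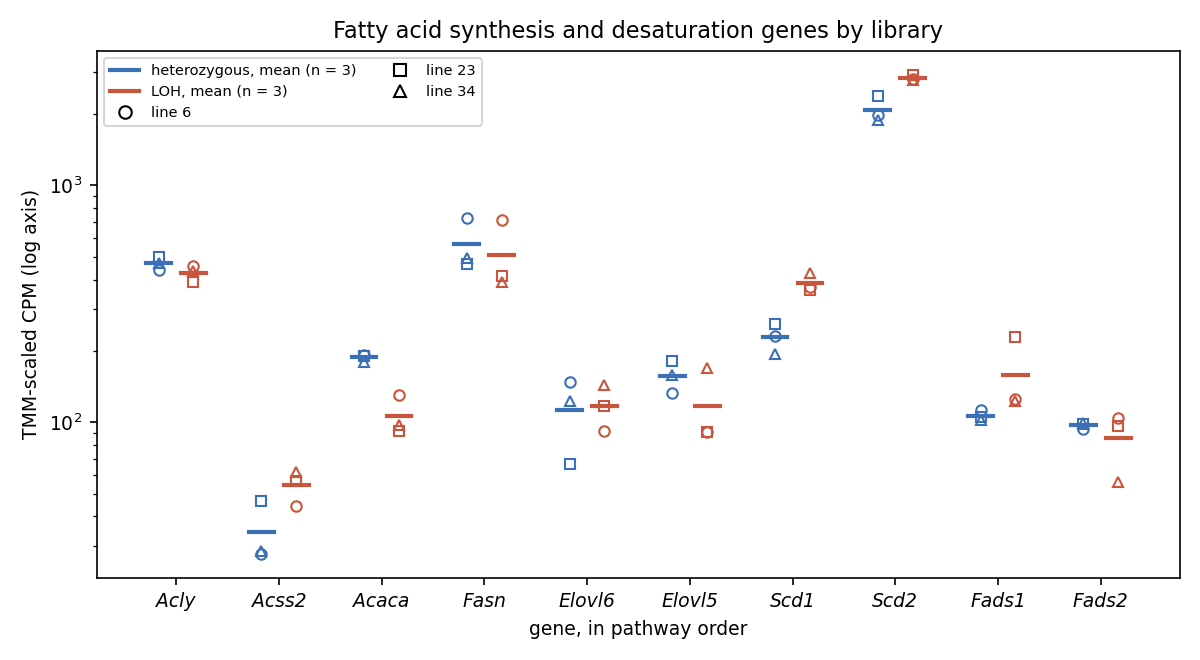
Level of each of the 10 genes in the 6 libraries, in CPM on a log axis, with 1 point per library, symbols for the organoid line, colours for the genotype and bars for the mean of 3 libraries. In CPM the groups did not overlap for Acaca, Scd1, Scd2 and Fads1, and the Fasn points of line 6 lay above those of the other lines in both genotypes.

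Neither source of cytosolic acetyl-CoA passed the test. Acly (ENSMUSG00000020917.17) lies at chr11:100476353-100528000 on the minus strand of GRCm38. Acss2 (ENSMUSG00000027605.18) lies at chr2:155517948-155585724 on the plus strand. Acly was at 440, 497 and 469.6 CPM in heterozygous organoids and at 457, 389.5 and 436 CPM in the LOH libraries. In CPM the genotypes overlapped, and the log2 fold change came to -0.13 (SE 0.16), at an adjusted p of 0.636 in edgeR. In TPM Acly was at 157, 137 and 135 against 114.5, 92.0 and 89.7, without overlap, and limma on log2(TPM + 1) gave -0.53 (adjusted p = 0.0783), where the median of all genes was -0.35. Acss2 was at 27.8, 46.4 and 28.6 CPM in the heterozygous and 44.4, 56.7 and 61.8 CPM in the LOH libraries. In CPM each line was higher in its LOH library, by 0.67, 0.29 and 1.11 on the log2 scale. Heterozygous line 23 at 46.4 CPM still lay above LOH line 6. The fitted log2 fold change of Acss2 was 0.67 (SE 0.27), with an unadjusted p of 0.0398 and an adjusted p of 0.175 in edgeR. In TPM Acss2 was at 13.9, 18.1 and 11.4 against 15.7, 17.9 and 17.9, so line 23 was not higher. Limma on log2(TPM + 1) gave 0.25 for Acss2 (adjusted p = 0.44). Ggt7, Acss2os and Gss overlap Acss2 on the opposite strand, and the strand setting of the counting is not given in the sources used here, so reads of these genes may not be separable.

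Acly also has an alternative coding exon, shown here because its inclusion is the one readout of this gene that was not its total level. The exon lies at chr11:100503160-100503189 on the minus strand of GRCm38, is 30 bases long and so adds 10 codons, and 2 annotated coding transcripts carry it and 2 skip it. It is printed from 5′ to 3′ with the exon in capitals and 12 bases of the neighbouring exons on either side.

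Acly exon: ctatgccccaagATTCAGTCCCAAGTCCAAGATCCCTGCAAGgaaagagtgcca

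Of the TPM of these transcripts, those with the exon made up 59.0%, 60.3% and 57.9% in heterozygous organoids, and 71.2%, 54.6% and 54.5% in the LOH libraries. The means were 59.1% ± 1.21 and 60.1% ± 9.64 (SD, n = 3 each). LOH line 6 was the highest, LOH lines 23 and 34 were the lowest, and the heterozygous libraries lay between them. These shares come from the authors' model-based assignment of reads to transcripts, and no interval for them was computed.

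Acaca, which makes malonyl-CoA, held the smallest p of the 10. Acaca (ENSMUSG00000020532.18) lies at chr11:84129672-84401651 on the plus strand. It stood at 192.5, 191 and 179.9 CPM in heterozygous organoids and at 130.8, 91.5 and 97.5 CPM in the LOH libraries. Every LOH library lay below every heterozygous one, and the means were 188 ± 6.91 and 107 ± 21.2 CPM (SD, n = 3 each), a fitted fold of 0.57. The log2 fold change came to -0.82 (SE 0.2, unadjusted p = 0.00394, edgeR adjusted p = 0.0596), which missed the threshold. The value with the line as a block was -0.83 (adjusted p = 0.143). Leaving out LOH line 6 gave -1.03 and an adjusted p of 0.019 (16.2% of all genes were then called), leaving out both libraries of line 6 gave -1.0 (adjusted p = 0.0422), and DESeq2 gave -0.83 (adjusted p = 0.0043). Over all the alternatives its log2 fold change ran from -1.12 to -0.71 and its adjusted p from 0.0043 to 0.316. Its main transcript carried 52.07 to 72.68% of the gene's TPM in each library. Gm11437 overlaps Acaca on the opposite strand.

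Fasn, the enzyme that assembles palmitate, was spread widely over the lines within each genotype. Fasn (ENSMUSG00000025153.9) lies at chr11:120805846-120824547 on the minus strand. It was at 732, 467 and 493 CPM in heterozygous organoids and at 713, 414 and 392 CPM in LOH organoids. Line 6 was the highest in both genotypes, and the genotypes overlapped. Its log2 fold change came to -0.16 (SE 0.3), at an adjusted p of 0.776 in edgeR, with line values of -0.04, -0.17 and -0.33. The highest heterozygous library was 1.57 times the lowest, and the highest LOH library 1.82 times the lowest. Without heterozygous line 6 the fitted log2 fold change of Fasn was 0.05. The genes whose centred log2 CPM lay nearest to Fasn's over the 6 libraries were Nup214, Nup188 and Cherp, at root mean square differences of 0.068, 0.091 and 0.091, where the spread of Fasn itself on that scale was 0.354. Nup214 and Nup188 encode nuclear pore proteins.

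Promoters are shown for Acly and Fasn, to show the sequence before the first and last enzymes on the way from citrate to palmitate. Each is the 250 bases before the RefSeq start on the minus strand (GRCm38.p6), at chr11:120824548-120824797 for Fasn and chr11:100528001-100528250 for Acly. The Fasn window precedes a transcript that carried 16.87 to 22.32% of the gene's TPM, whereas the main transcript, with 64.07 to 73.69%, starts further into the gene, at position 120824095. Capitals mark matches on either strand to the CCAAT box in the first window and to the GC box, whose letters are GGGCGG, in the second.

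Fasn promoter: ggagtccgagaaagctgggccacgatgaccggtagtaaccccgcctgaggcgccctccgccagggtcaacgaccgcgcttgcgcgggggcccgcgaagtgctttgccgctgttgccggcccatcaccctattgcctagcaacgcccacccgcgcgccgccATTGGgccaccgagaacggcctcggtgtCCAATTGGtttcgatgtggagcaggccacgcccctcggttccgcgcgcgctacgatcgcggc
Acly promoter: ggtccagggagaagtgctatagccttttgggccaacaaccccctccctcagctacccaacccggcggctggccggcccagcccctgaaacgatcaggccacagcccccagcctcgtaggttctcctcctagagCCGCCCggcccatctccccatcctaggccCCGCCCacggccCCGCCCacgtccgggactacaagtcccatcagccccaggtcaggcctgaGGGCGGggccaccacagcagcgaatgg

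The Fasn window held 3 matches to CCAAT, starting 90, 62 and 59 bases before the start, of which the last 2 overlap. The Acly window held 4 matches to GGGCGG, 117, 88, 76 and 27 bases before the start. RefSeq windows matched 7 of the 10 members, but not all lie outside transcribed sequence. For Fads2 243 of the 250 bases fall in the gene's own annotated exons, for Acss2 95 and for Elovl6 31. Exons of Gm35986 cover 129 bases of the Elovl6 window. The start used for Acaca is an internal exon start of other transcripts. Of the 7 windows, 3 held CCAAT, as did 33.8% of all 32851 such windows, and 3 held GGGCGG, beside 32.7%. CACGTG was found in 1 of the 7 (Elovl5), beside 6.02%. TCACNCCAC, a short form of the sterol regulatory element, was in 0 of the 7 and in 1.05% of all windows. A match describes letters only.

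Neither elongase passed the test. Elovl6 (ENSMUSG00000041220.10) lies at chr3:129532355-129638495 on the plus strand, where Gm43072 overlaps it on the same strand and Gm35986 on the opposite strand. Elovl5 (ENSMUSG00000032349.13) lies at chr9:77917364-77984519 on the plus strand. Elovl6 was at 148, 66.7 and 123 CPM in heterozygous organoids and at 92.1, 117 and 144 CPM in the LOH libraries. Its line differences were -0.69, 0.81 and 0.22 on the log2 scale, so lines 6 and 23 had opposite signs, and the fitted value was 0.06 (SE 0.32, edgeR adjusted p = 0.925). The lowest and highest heterozygous libraries of Elovl6 differed 2.22 times, the widest such spread among the 10 genes in either genotype. Elovl5 was at 132, 181 and 159 CPM in heterozygous organoids and at 91.0, 91.3 and 169.7 CPM in the LOH libraries. LOH lines 6 and 23 lay below all heterozygous libraries, and LOH line 34 lay among them. The fitted change of Elovl5 on the log2 scale was -0.42 (SE 0.29), at an adjusted p of 0.399 in edgeR, whereas the limma test of log2(TPM + 1) gave -0.85 (adjusted p = 0.0469), on a scale where the median of all genes was itself -0.35.

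The desaturases of saturated chains had higher CPM in each LOH library than in any heterozygous one, without passing the test. Scd1 (ENSMUSG00000037071.2) lies at chr19:44394455-44407879 on the minus strand. Scd2 (ENSMUSG00000025203.5) lies at chr19:44293674-44306864 on the plus strand. Scd1 stood at 232, 259 and 194.5 CPM in heterozygous organoids and at 372, 360.5 and 427 CPM in the LOH libraries. The means were 228 ± 32.4 and 387 ± 35.7 CPM (SD, n = 3 each), a fitted fold of 1.69. The log2 fold change came to 0.76 (SE 0.18, unadjusted p = 0.00433), and the edgeR adjusted p of 0.0623 missed the threshold. DESeq2 gave 0.75 (adjusted p = 0.00407), and over the alternatives the log2 fold change of Scd1 ran from 0.37 to 0.91 with adjusted p from 0.00407 to 0.376.

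Scd2 was at 1987, 2376 and 1882.5 CPM in the heterozygous and 2814, 2935 and 2783 CPM in the LOH libraries. In CPM these groups did not overlap, with a fitted fold of 1.37 (log2 fold change 0.45, SE 0.18, edgeR adjusted p = 0.167). In TPM Scd2 stood at 483, 464 and 386 in heterozygous organoids and at 501, 477 and 414 in LOH organoids, and the groups overlapped. Limma on log2(TPM + 1) gave 0.06 (adjusted p = 0.828), on a scale where the median of all genes was -0.35. Over the alternatives the log2 fold change of Scd2 ran from 0.06 to 0.55 and its adjusted p from 0.0879 to 0.828. Scd1 and Scd2 were each other's nearest member over the 6 libraries (root mean square difference 0.188 log2 units), and the nearest member to Acss2 was Scd1 (0.209). Their own spreads on that scale were 0.408 for Scd1, 0.251 for Scd2 and 0.444 for Acss2. For the other 7 members the nearest member lay at 0.292 to 0.468, where own spreads ran from 0.108 to 0.447, and for Acly and Elovl6 the distance exceeded the gene's own spread. Of the 50-base stretches of the Scd1 transcript, 2.97% also occur in Scd2 and 3.42% in Scd3, so a small share of reads could be split between these copies.

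Scd1, Scd2, Fads1 and Fads2 lie on chromosome 19. The other 466 tested genes of that chromosome, without these members, had a median log2 fold change of 0.34, with line medians of 0.36, 0.48 and 0.05, where all tested genes had 0.06. Chromosome 3, which holds Elovl6, had a median of 0.29, with line medians of 0.18, 0.29 and 0.27. Chromosomes 2, 9 and 11, which hold the other members, had medians of -0.02, -0.05 and 0.05. Vldlr, called higher below, and Gpam, called lower, also lie on chromosome 19. The part of the chromosome in these results was not tested. In lines 6, 23 and 34 the log2 CPM of Scd1 differed by 0.68, 0.48 and 1.14, and that of Scd2 by 0.5, 0.31 and 0.56. Fads1 differed by 0.15, 1.11 and 0.27, and Fads2 by 0.15, -0.02 and -0.83.

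Neither desaturase of polyunsaturated chains passed the test. Fads1 (ENSMUSG00000010663.4) lies at chr19:10182888-10196877 on the plus strand. Fads2 (ENSMUSG00000024665.7) lies at chr19:10062765-10101746 on the minus strand. Fads1 was at 113, 105.7 and 101.7 CPM in heterozygous organoids and at 125, 228 and 123 CPM in LOH organoids. In CPM the groups did not overlap, with LOH line 23 far above the other LOH libraries. The log2 fold change came to 0.57 (SE 0.27), at an adjusted p of 0.242 in edgeR. Without LOH line 23, or without both libraries of line 23, the value of Fads1 was 0.21. In TPM Fads1 was at 43.9, 33.2 and 33.5 against 35.7, 59.5 and 29.3, and the groups overlapped. Limma on log2(TPM + 1) gave 0.12 for Fads1 (adjusted p = 0.798), where the median of all genes was -0.35. Fads2 was at 93.5, 98.0 and 99.7 CPM in the heterozygous libraries, the tightest of the 10 with Acaca and Fads1, and at 104, 96.5 and 55.9 CPM in the LOH libraries. Only LOH line 34 lay below, and the log2 fold change came to -0.18 (SE 0.25), at an adjusted p of 0.677 in edgeR. Without LOH line 34 it was 0.04. That library also had the highest epithelial and leukocyte marker sums. Not every epithelial marker was highest there, as Cdh1 was at 587, 726 and 469.6 CPM in the LOH libraries. The part of these sums in this result was not tested.

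**Figure D2:**
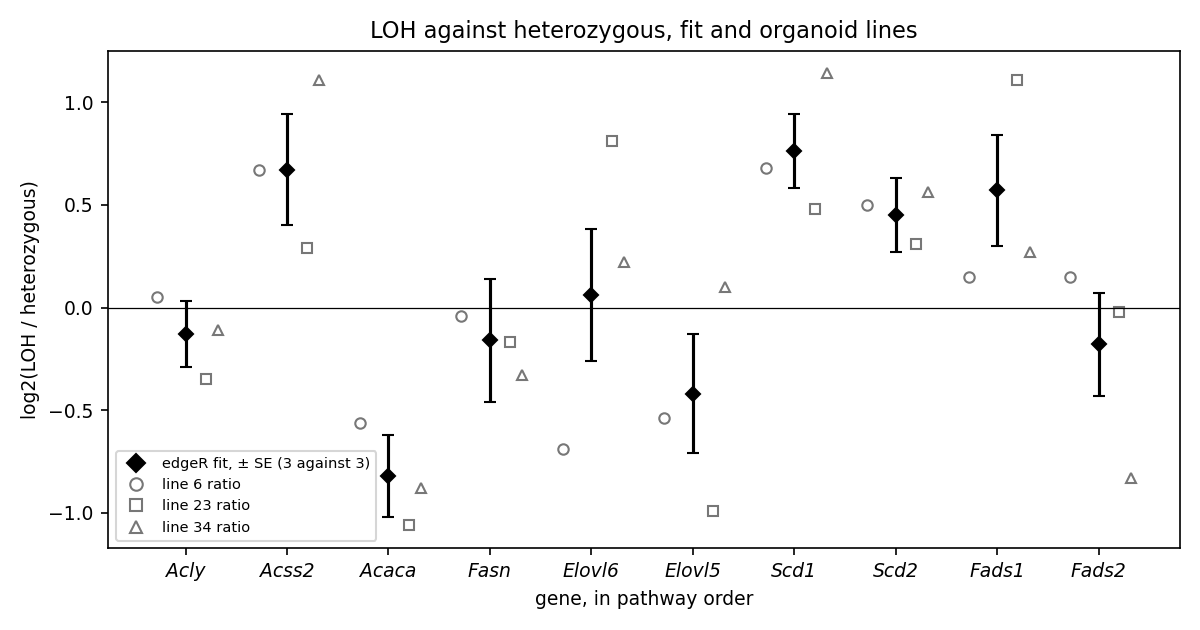
Log2 fold change of LOH over heterozygous for the 10 genes, with the fitted value and its standard error and 1 point for each organoid line. Values for lines 6, 23 and 34, in log2 CPM, lie on the same side of 0 for Acss2, Scd1, Scd2 and Fads1 (higher) and for Acaca and Fasn (lower).

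By line, 6 of the 10 genes had the same direction of log2 CPM in lines 6, 23 and 34, beside 44.5% of all tested genes. Groups did not overlap in CPM for 4 of the 10, beside 32.8% of all tested genes. Of these 3 were higher (16.4% of all genes) and 1 was lower (16.5%). For 10 genes both shares stand near the background. Taken by line, the median over the members came to 0.1 (line 6), 0.13 (line 23) and 0.16 (line 34), where the medians of all tested genes were -0.01, 0.03 and 0.06.

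Between genes, levels were compared in TPM, within a library. In the heterozygous libraries Scd2 was first at 444 ± 51.3 TPM (SD, n = 3), followed by Acly at 143 ± 12.4 and Fasn at 84.6 ± 30.1 TPM. Fads2 (81.2 ± 6.68 TPM), Elovl5 (67.5 ± 3.42 TPM) and Scd1 (55.4 ± 9.44 TPM) came next. Fads1 (36.8 ± 6.09 TPM), Acaca (35.0 ± 7.54 TPM), Elovl6 (25.1 ± 10.9 TPM) and Acss2 (14.5 ± 3.36 TPM) were the lowest. The ranges of the neighbours Fasn and Fads2 overlapped, as did those of Fads1 and Acaca, of Elovl6 and Acaca, and of Elovl6 and Acss2. Beyond neighbours, Fasn also overlapped Elovl5 and Scd1, and Elovl6 overlapped Fads1. The order of these genes was thus not resolved. In line 23 Fasn (62.0 TPM) lay below Fads2 (75.3 TPM) and Elovl5 (71.4 TPM). In the LOH libraries Scd2 (464 ± 45.2 TPM) and Acly (98.7 ± 13.7 TPM) again led, and the order below them was mostly unresolved. Scd1 had 71.1 ± 4.45 TPM and overlapped Fasn, and Acaca had 16.1 ± 3.76 TPM and overlapped Acss2. Of the neighbours below Acly, Elovl5 and Elovl6 alone were apart.

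In TPM typical genes were lower in LOH, with a median log2 fold change of -0.35 over all genes in limma on log2(TPM + 1). Protein-coding genes held 73.28%, 67.92% and 71.06% of the counts in heterozygous organoids and 67.2%, 61.54% and 61.43% in the LOH libraries. The part of this difference in the TPM values was not tested. On that TPM scale the 10 genes summed to 1113, 961 and 888 in heterozygous organoids and to 979.8, 882 and 781 in the LOH libraries. Scd2 alone made up 43.4%, 48.3% and 43.4% of this sum in the heterozygous and 51.2%, 54.1% and 53.0% in the LOH libraries. Its share was therefore higher in each LOH library than in any heterozygous one. The share of Scd1 was 5.73%, 5.96% and 5.08% against 7.66%, 7.52% and 9.21%, and that of Acaca 3.9%, 2.99% and 3.71% against 2.07%, 1.47% and 1.93%. These shares sum to 100 by construction, so that they are not independent of one another.

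**Figure D3:**
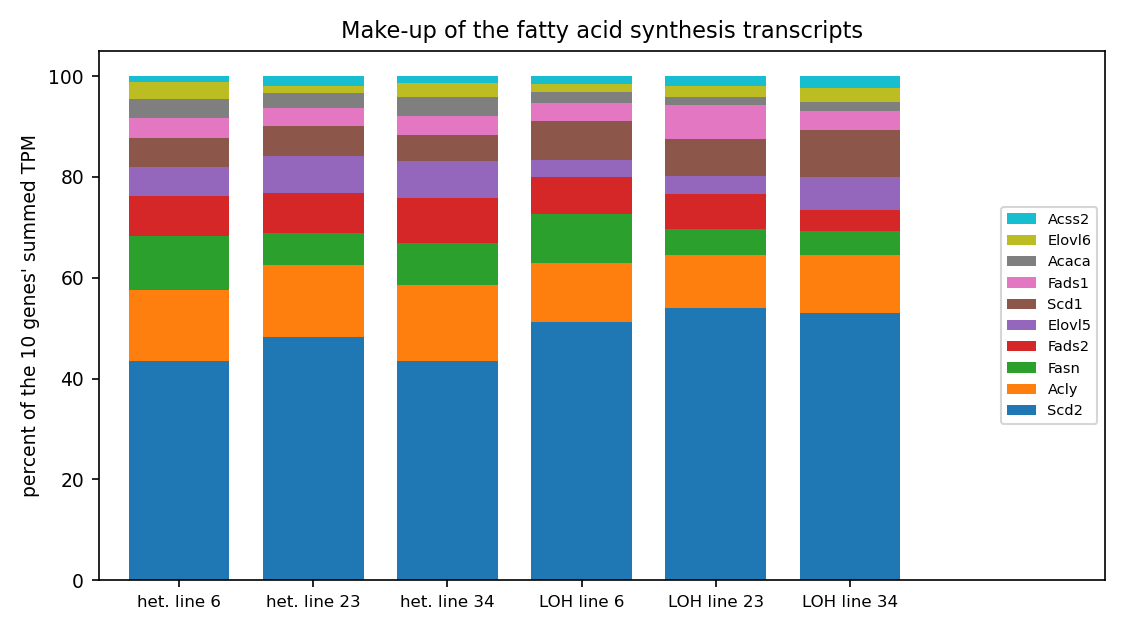
Share of the summed TPM of the 10 genes that each gene takes in each of the 6 libraries, in percent, as stacked bars. Scd2 takes 43.4% to 48.3% in the heterozygous libraries and 51.2% to 54.1% in the LOH libraries.

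Ratios of paired enzymes within a library remove scaling between libraries. With 3 libraries against 3, the exact two-sided permutation test cannot give a p below 0.1, so that none of the 4 ratios could pass, and adjusted values are over these 4. The log2 ratio of Scd1 to Scd2 was -2.92, -3.02 and -3.1 in heterozygous organoids and -2.74, -2.85 and -2.52 in the LOH libraries. The groups did not overlap and the difference was 0.31, a fold of 1.24 (exact permutation p = 0.1, adjusted 0.2). Acss2 to Acly, the acetate route over the citrate route, gave -3.5, -2.92 and -3.56 in the heterozygous and -2.87, -2.36 and -2.33 in the LOH libraries. These groups did not overlap, and the difference was 0.81, a fold of 1.75 (exact permutation p = 0.1, adjusted 0.2). It was above 0 in each line, at 0.63, 0.56 and 1.24.

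The ratio of Fads1 to Fads2 differed by 0.74 (exact permutation p = 0.2, adjusted 0.267), from lines 23 and 34 at 1.14 and 1.1, with line 6 at -0.01. Elovl6 to Elovl5 differed by 0.54 (exact permutation p = 0.4, adjusted 0.4), with line values of -0.19, 1.69 and 0.12. Line 23 thus carried most of that difference, and without it the value was -0.03.

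**Figure D4:**
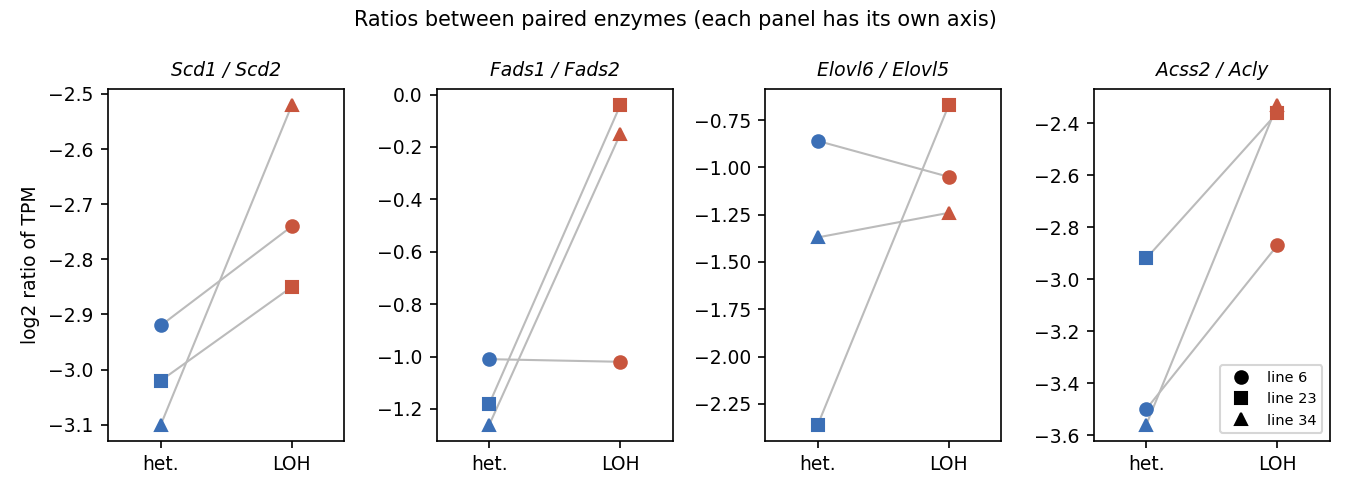
Log2 ratio of TPM for 4 pairs of enzymes in each of the 6 libraries, with lines joining the libraries of an organoid line. The LOH points lie above the heterozygous points without overlap for Scd1 to Scd2 and for Acss2 to Acly.

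None of the named transcriptional regulators of the pathway passed the test. Srebf1, the SREBP best known for fatty acid genes, was at 127, 115 and 112 CPM in heterozygous organoids and at 113, 112 and 99.2 CPM in the LOH libraries (log2 fold change -0.13, SE 0.16, edgeR adjusted p = 0.654). Srebf2, better known for sterol genes, was at 177, 138 and 123 CPM against 162, 260 and 154 CPM (log2 fold change 0.4, adjusted p = 0.386). Its target Insig1, which holds SREBP in the endoplasmic reticulum, was at 155, 198 and 180 CPM against 146, 251 and 408 CPM (log2 fold change 0.59, adjusted p = 0.342). Mlxipl, which encodes the glucose-responsive factor ChREBP, was low, at 5.94, 3.86 and 6.44 CPM against 3.49, 3.28 and 1.68 CPM without overlap (log2 fold change -0.95, adjusted p = 0.192). In the list of 14 control genes around SREBP, ChREBP and the liver X receptors, 13 were tested, 0 were called by edgeR, 4 had an unadjusted p under 0.05, and DESeq2 and limma called 1 each, beside 25.3%, 15.8% and 16% of all genes.

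Around the pathway, 111 genes of 9 lists of fatty acid metabolism were tested, and edgeR called 9 of them, 2 higher and 7 lower in LOH. This is 8.11% of the genes, beside 5.21% of all tested genes (3.55% higher and 1.66% lower). The lists were chosen with earlier results of these data known, so the 2 shares are not an independent comparison. In edgeR 35 of the 111 had an unadjusted p under 0.05, beside 25.3% of all tested genes. With the line as a block 1 was called, Vldlr, where 1.22% of all tested genes were called higher and 0.248% lower. Leaving out any 1 heterozygous library, or both libraries of line 23 or of line 34, left 0 called by edgeR, as for all genes tested. Without LOH line 6 there were 21, where 2449 of all 15132 tested genes (16.2%) were called. Without LOH line 23 there were 3, where 451 of all 14950 were called. Without both libraries of line 6 there were 14, where 1422 of all 14727 were called. DESeq2 called 18 of the 111, where it called 15.8% of all genes. Limma on log2(TPM + 1) tested 104 of these genes and called 22, where it called 16% of all genes.

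G6pdx and Pgd, which make NADPH for fatty acid synthesis, were lower in LOH. Among the 13 tested genes that supply cytosolic acetyl-CoA and NADPH, 2 were called lower and 0 higher. Of all tested genes, 1.66% were called lower and 3.55% higher, and with the block 0 of the 13 were called. The median log2 fold change of the list was -0.31, where that of all tested genes was 0.06, and 3 of the 13 lay above 0. G6pdx, the first enzyme of the pentose phosphate pathway, was at 206, 223 and 211 CPM in heterozygous organoids and at 124, 93.6 and 106 CPM in the LOH libraries (log2 fold change -0.98, SE 0.18, edgeR adjusted p = 0.0313, with the block 0.107). Pgd, which makes NADPH further along that pathway, was at 316, 250.4 and 224 CPM against 118, 147 and 123 CPM (log2 fold change -1.03, SE 0.2, adjusted p = 0.0378, with the block 0.115). Neither gene overlapped between the genotypes.

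The list of elongation cycle partners and other elongases had a median log2 fold change of -0.49, where all tested genes had 0.06. With the block 0 of its 8 tested genes were called. Without the block 1 was called, lower in LOH, beside 1.66% of all tested genes called lower. It was Hacd3, a dehydratase of the elongation cycle, at 75.1, 95.4 and 86.9 CPM in the heterozygous and 40.7, 27.8 and 43.4 CPM in the LOH libraries (log2 fold change -1.2, SE 0.23, edgeR adjusted p = 0.0355, with the block 0.11).

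In the list of acyl-CoA synthetases, uptake and binding, 1 of 10 tested genes was called higher and 1 lower. Of all tested genes, 3.55% were called higher and 1.66% lower. Vldlr, a receptor for triglyceride-rich lipoproteins, rose from 19.5, 21.7 and 12.7 CPM in heterozygous organoids to 80.1, 159 and 72.2 CPM in the LOH libraries. Its log2 fold change came to 2.53 (SE 0.38), at an adjusted p of 0.0219 in edgeR, and 2.47 with the block (adjusted p = 0.0341). Line values were 2.04, 2.86 and 2.51, and of the 9 called genes Vldlr was the one also called with the block. Fabp5, a fatty acid binding protein, fell from 502, 512 and 543 CPM to 167, 54.3 and 133 CPM (log2 fold change -2.13, SE 0.4, adjusted p = 0.0334, with the block 0.0665).

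Among 19 tested genes of glycerolipid synthesis and lipid droplets, 1 was called higher and 3 lower, beside 3.55% and 1.66% of all tested genes. With the line as a block 0 of the 19 were called. Gpam and Gpat3 both catalyse the first acylation of glycerol 3-phosphate, Gpam at the mitochondrial outer membrane and Gpat3 in the endoplasmic reticulum. Gpam was at 49.9, 45.3 and 46.5 CPM in heterozygous organoids and at 23, 18.0 and 12.9 CPM in the LOH libraries (log2 fold change -1.4, edgeR adjusted p = 0.0301, with the block 0.0735). Gpat3 was at 2.47, 3.93 and 3.81 CPM against 8.15, 10.8 and 17.5 CPM (log2 fold change 1.84, adjusted p = 0.0401, with the block 0.0696). Agpat3, which acylates lysophosphatidic acid, was at 54.0, 62.2 and 50.6 CPM against 22.4, 28.7 and 27.1 CPM (log2 fold change -1.09, adjusted p = 0.0298, with the block 0.0973). Plin2, a coat protein of lipid droplets, was at 18.9, 21.4 and 17.6 CPM against 10.1, 9.17 and 7.64 CPM (log2 fold change -1.1, adjusted p = 0.0367, with the block 0.106).

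The remaining lists held no called gene by edgeR. Their counts stand beside 25.3% of all tested genes at an unadjusted p under 0.05, 15.8% called by DESeq2 and 16% by limma. Kinases and modifiers of acetyl-CoA carboxylase and ACLY had 0 of 8, with 2 at an unadjusted p under 0.05, 2 called by DESeq2 and 0 by limma on log2(TPM + 1). Other desaturases and their electron carriers had 0 of 9, with 3 unadjusted, 1 by DESeq2 and 1 by limma. Mitochondrial fatty acid synthesis had 0 of 8, with 2 unadjusted, 0 by DESeq2 and 2 by limma. Fatty acid oxidation had 0 of 23, with 5 unadjusted, 2 by DESeq2 and 1 by limma.

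**Figure D5:**
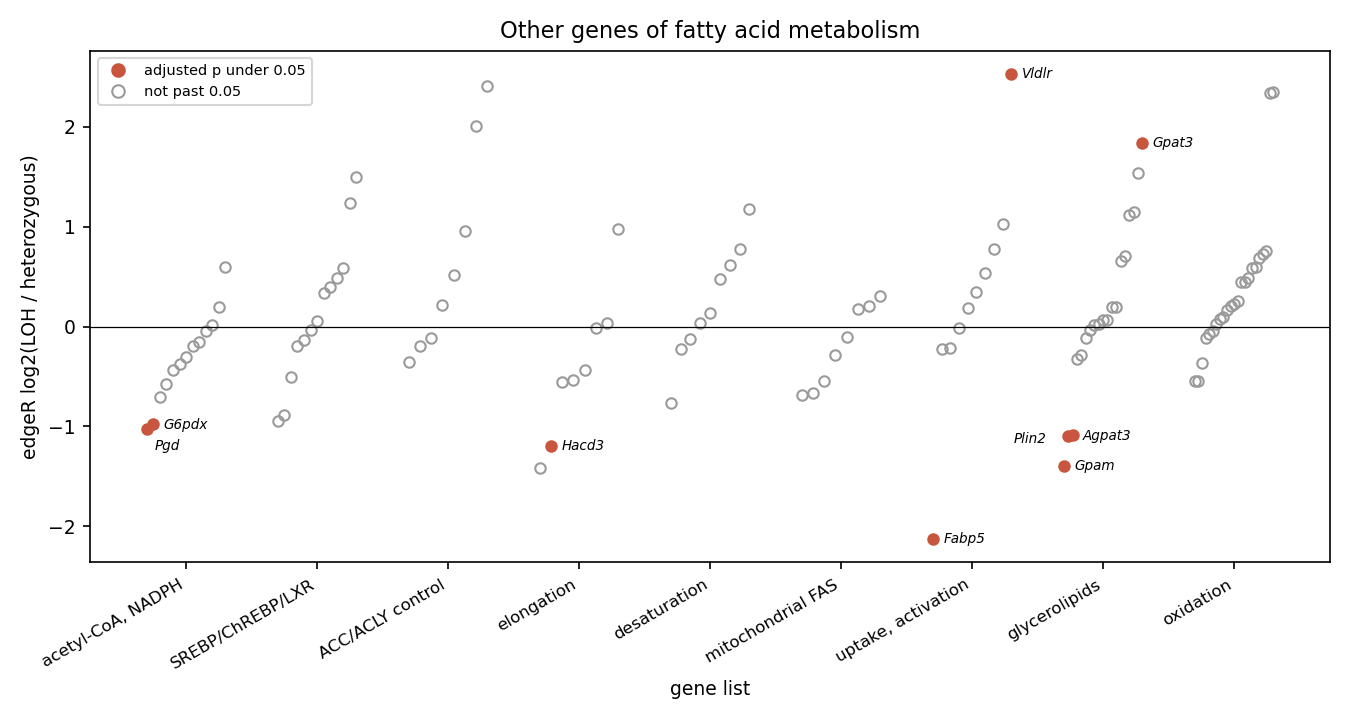
Log2 fold change of LOH over heterozygous for each tested gene of the 9 surrounding lists, 1 point per gene, with called genes labelled. Vldlr and Gpat3 are the called genes above 0, and Agpat3, Fabp5, G6pdx, Gpam, Hacd3, Pgd and Plin2 those below.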

How the data were processed

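Total RNA of 6 organoid libraries was sequenced after a stranded total RNA preparation, per the labels' protocols. The authors aligned with STAR 2.5.2b, quantified with RSEM 1.3.0 on GRCm38.p5 and checked reads with FastQC 0.11.5, and DESeq2 1.44.0 is listed, per the submitters' processing notes; the strand setting is not given in the sources used here. The deposited values are expected counts per gene, TPM, isoform percent of each gene's TPM, and a normalized signal that equals the truncated expected count over a size factor in all values. Expected counts were rounded and tested with edgeR 4.0.16 (quasi-likelihood, TMM, filterByExpr) in R 4.3.3, 3 LOH against 3 heterozygous, with Benjamini-Hochberg adjustment at 0.05. The alternatives were DESeq2 1.42.0, limma 3.58.1 on log2(TPM + 1) and log2(TPM + 0.1), other scalings and filters, the organoid line as block, and each library or line left out. The script was tested on simulated data. Log2 CPM used a prior count of 2, and SE is the size of the log2 fold change over the root of edgeR's F.

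Libraries of a number come from the same organoid line, which pairs them. Their deviations from the group means correlated over genes at -0.3 (line 6), 0.01 (line 23) and 0.29 (line 34). A heterozygous and a LOH library of different lines correlated at -0.39 to 0.3, a range that holds the same-line values. Nothing states further separate cultures, so p-values measure the spread between these libraries.

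Beyond the 10 members, the text names Trp53, Srebf1, Srebf2, Mlxipl and Insig1, up to 3 higher and 3 lower genes of each list with an adjusted p under 0.05 without or with the block, the 3 genes nearest to Fasn, and each member's nearest member where given. Lists held 126 genes, of which 125 matched by symbol and 111 were tested. Members and lists were chosen with earlier results of these data known. Gene positions are from GENCODE on GRCm38, and promoters from RefSeq on GRCm38.p6. A further allele that all 6 libraries share, and 1 marker gene by name, are not reported here.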

Additional observations from a re-analysis of the deposited data

Results flagged for a closer look

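The following differences between LOH and heterozygous libraries had opposite signs in different organoid lines. With 1 library per genotype in a line, the difference between lines was not tested, and 8 of the 29 values examined met this condition. For the members, the highest and lowest line differed by 0.41 on the log2 scale for Acly (0.05 in line 6 against -0.35 in line 23), by 1.08 for Elovl5 (0.1 in line 34 against -0.99 in line 23), by 1.49 for Elovl6 (0.81 in line 23 against -0.69 in line 6) and by 0.99 for Fads2 (0.15 in line 6 against -0.83 in line 34). Among the regulators it was 1.05 for Srebf2 (0.92 in line 23 against -0.13 in line 6) and 1.27 for Insig1 (1.18 in line 34 against -0.09 in line 6). For the enzyme ratios it was 1.15 for Fads1 to Fads2 (1.14 in line 23 against -0.01 in line 6) and 1.88 for Elovl6 to Elovl5 (1.69 in line 23 against -0.19 in line 6).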

How the results depend on the processing

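Of the 180 alternative values of the members' log2 fold changes, 163 kept their direction and side of the threshold. The members called numbered 0, against 2 with DESeq2 and 2 with limma on log2(TPM + 1) or log2(TPM + 0.1), and 0 to 1 when libraries or lines were left out. Their median of -0.04 became -0.08 with no filter on low counts and -0.43 in both limma tests, where the median of all genes was -0.35 and -0.42, and ran from -0.14 to 0.16 when libraries or lines were left out. The other fatty acid genes called numbered 9, against 1 with the replicate block, 18 with DESeq2, 22 and 21 with limma, and 0 to 21 when libraries or lines were left out. Signs reversed for Fasn (0.05 without heterozygous line 6, range to -0.53 over the libraries and lines left out), for Elovl6 (-0.21 without heterozygous line 23, -0.11 without LOH line 34, -0.2 without line 23, -0.05 without line 34, range to 0.42, -0.32 and -0.33 in limma), for Fads2 (0.04 without LOH line 34, 0.06 without line 34, range to -0.4), for Srebf2 (-0.02 in both limma tests) and for Elovl6 to Elovl5 (-0.03 without line 23, range to 0.91). Over all genes, 757 were called (516 higher, 241 lower), against 213 with the block (177 higher, 36 lower), 2290 with DESeq2, and 1911 with limma on log2(TPM + 1) (280 higher, 1631 lower). Calls numbered 0 without any 1 heterozygous library (2966, 2637 and 2272 at an unadjusted p under 0.05) and 2449 without LOH line 6. Other than the counts given, the block ended the calls of 8 of the 9 surrounding genes and changed no member's call. The causes were not tested. Members held at least 626 counts in each library.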
